A study of Mus musculus with 10 samples.

Results

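The 10 genes described here, S100b, Sparcl1, Agt, Slc1a2, Slc1a3, Aqp4, Aldoc, Gja1, Apoe and Clu, are turned on or raised as astrocytes mature. They were chosen by name, with earlier results of these data known, and all 10 were found among the 57180 genes of the RNA table. CUT&Tag regions were taken as theirs where the deposited annotation gave one of these names as the assigned gene, which held for 28 of 69418 regions. All samples came from mouse brain and were labelled NSPCs, neural stem and progenitor cells, with no treatment. The WT group carried the wild-type genotype, and the KO group was labelled Mina53-KO. Mina53, now named Riox2, is a JmjC-domain protein that the series title presents as a demethylase of arginine 3 of histone H4. RNA-seq covered 3 WT and 3 KO libraries and CUT&Tag, in which an antibody-guided transposase cuts chromatin, 2 of each.

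The labels give no age, brain region, culture condition or strain of the cells, no method of making the KO, and no antibody or spike-in for CUT&Tag. They do not say whether libraries of a group came from separate animals or cultures, so p-values measure only the spread between libraries, which may be technical. RNA libraries held 19923010 to 25939376 counts and CUT&Tag libraries 2913959 to 4038765 reads in regions. Riox2 lay between 17.2 and 19.96 CPM (counts relative to the scaled library total) in WT and between 3.26 and 3.78 CPM in KO. Mitochondrial genes took 2.31% to 5.71% of the counts, under 3% in WT 1, KO 1 and KO 2 and over 3% in WT 2, WT 3 and KO 3.

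Astrocytes arise from the same neural stem cells that make neurons and oligodendrocytes, and many of their genes are already active in radial glia and cultured progenitors. Mature astrocytes clear glutamate and potassium from synapses, are coupled by gap junctions, cover blood vessels with water channel-rich endfeet and release lipoproteins and matricellular proteins. Progenitors are driven toward this fate by cytokines acting through STAT3, by BMPs and by nuclear factor I (NFI) proteins. Because some members, among them Slc1a3 and Aldoc, are also radial glial genes, their RNA in such cells does not by itself mark an astrocyte.

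Expressed per length as TPM (transcript abundance normalised for length, computed from the counts and deposited gene lengths), the 10 genes spanned a wide range in WT cells. The glutamate transporter gene Slc1a3 (1251 ± 73.1 TPM, SD, n = 3 WT), the glycolytic aldolase gene Aldoc (1214 ± 207 TPM) and the lipoprotein gene Apoe (1153 ± 429 TPM) formed the top, with overlapping ranges. Slc1a3 ranked 69th by WT TPM among the 15298 genes tested. Sparcl1 followed at 258 ± 39.9 TPM, then S100b at 204 ± 10.5 TPM and Gja1 at 171 ± 25.4 TPM, whose ranges overlapped. Clu stood at 97.5 ± 18.4 TPM. Agt, at 52.3 ± 13.5 TPM, overlapped Slc1a2, at 47.9 ± 6.18 TPM, and the water channel gene Aqp4 was lowest at 26.8 ± 5.88 TPM. TPM depend on the deposited lengths, such as 11595 bases for Slc1a2 and 4163 for Slc1a3. The labelled NSPCs carried RNA of all 10 genes, and Aqp4, the lowest, lay within the top 38.9% of tested genes.

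In KO cells the order differed. Apoe (954 ± 225 TPM), Slc1a3 (913 ± 63.7 TPM) and Aldoc (812 ± 74.4 TPM) still overlapped at the top. Gja1 came next at 176 ± 9.66 TPM, above Sparcl1 at 121 ± 10.3 TPM. Clu, at 87.1 ± 11.4 TPM, and S100b, at 72.0 ± 5.62 TPM, overlapped, and Agt, at 18.0 ± 4.74 TPM, was last and overlapped Aqp4, at 21.5 ± 5.10 TPM. The TPM ratio of S100b to Gja1 was 1.29, 1.27 and 1.07 in the WT libraries and 0.379, 0.434 and 0.413 in the KO libraries.

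RNA of 5 of the 10 genes was lower in KO at an adjusted p under 0.05 (edgeR quasi-likelihood test, Benjamini-Hochberg over all 15298 genes): S100b, Sparcl1, Agt, Slc1a3 and Aldoc. None was higher. Of all genes tested, 1.66% were called lower and 1.77% higher. Because the 10 genes were chosen with earlier results of these data known, this comparison is a description and not a test of the set. Among the 5956 genes with a WT TPM at or above that of Aqp4, 84 were called lower and 45 higher. Of the 10 log2 fold changes, 9 lay below 0, with a median of -0.40, beside 0.01 over all genes. In the 5 called genes every KO library lay below every WT library, an arrangement seen in 9.26% of tested genes, and in the other 5 the groups overlapped. Summed over the 10 genes, the libraries held 5902, 5181 and 5697 CPM in WT and 4094, 3996 and 3864 CPM in KO. In bulk RNA, fewer cells of a type and less RNA per cell cannot be told apart.

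**Figure D1:**
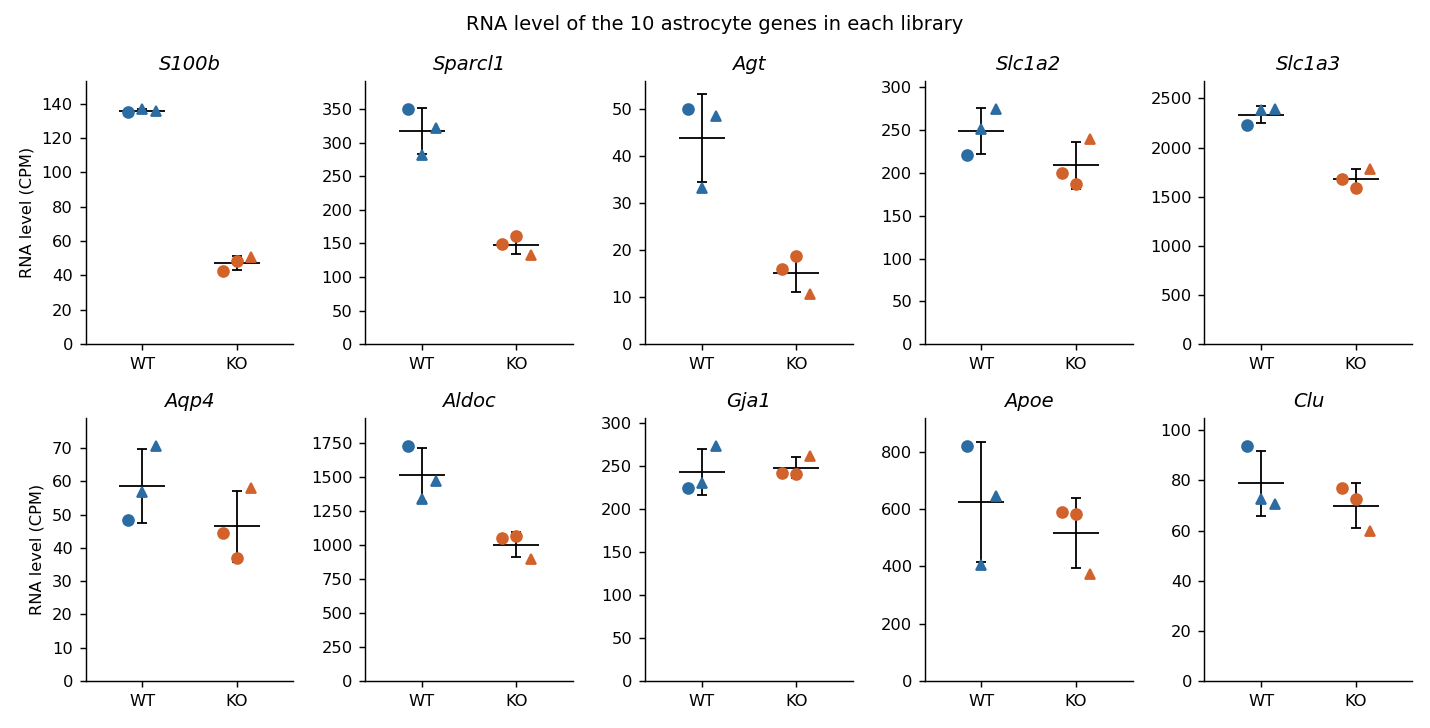
RNA level in CPM (vertical axes, each starting at 0) of the 10 genes in 3 WT (blue) and 3 KO (orange) libraries; lines and bars are mean and SD, circles are libraries with under 3% mitochondrial counts and triangles those with over 3%. S100b, Sparcl1, Agt, Slc1a3 and Aldoc show no overlap between groups, and in Apoe the triangles of WT 2 and KO 3 lie lowest in their groups.

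The promoters of 4 called genes are given to show the sequence before and at the start of genes that were lower together. They were found in RefSeq sequences of build GRCm38.p6, and run 5′ to 3′ on the gene's strand from 250 bases before to 50 bases after the start. Capitals mark the NFI half-site TTGGC, or GCCAA on the other strand, and the STAT palindrome TTCNNNGAA. S100b lies at chr10:76253586-76253885 (+), Agt at chr8:124569657-124569956 (-), Slc1a3 at chr15:8710758-8711057 (-) and Aldoc, at the more upstream of its 2 listed starts, at chr11:78322823-78323122 (+).
S100b: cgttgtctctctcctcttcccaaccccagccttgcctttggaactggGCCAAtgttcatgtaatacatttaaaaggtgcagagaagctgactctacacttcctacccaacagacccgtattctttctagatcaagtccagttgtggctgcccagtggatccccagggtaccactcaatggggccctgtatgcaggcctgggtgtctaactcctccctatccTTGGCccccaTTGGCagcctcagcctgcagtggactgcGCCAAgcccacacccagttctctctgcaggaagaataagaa
Agt: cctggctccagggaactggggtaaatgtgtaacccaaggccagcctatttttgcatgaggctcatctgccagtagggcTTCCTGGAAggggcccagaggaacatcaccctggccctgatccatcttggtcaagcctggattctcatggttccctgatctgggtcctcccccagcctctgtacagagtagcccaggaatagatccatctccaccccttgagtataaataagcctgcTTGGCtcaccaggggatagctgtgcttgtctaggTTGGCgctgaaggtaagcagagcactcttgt
Slc1a3: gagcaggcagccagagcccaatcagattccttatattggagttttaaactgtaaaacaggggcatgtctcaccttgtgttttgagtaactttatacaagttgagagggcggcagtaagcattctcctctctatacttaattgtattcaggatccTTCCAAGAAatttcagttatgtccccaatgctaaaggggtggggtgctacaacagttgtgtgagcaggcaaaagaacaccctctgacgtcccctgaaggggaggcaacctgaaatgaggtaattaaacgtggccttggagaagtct
Aldoc: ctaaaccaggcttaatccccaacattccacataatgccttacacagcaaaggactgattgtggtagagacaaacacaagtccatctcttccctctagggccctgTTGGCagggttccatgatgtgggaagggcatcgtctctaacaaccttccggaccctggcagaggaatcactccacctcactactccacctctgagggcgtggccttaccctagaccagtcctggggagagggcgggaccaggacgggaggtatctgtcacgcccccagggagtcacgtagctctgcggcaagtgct

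The S100b window held 4 NFI half-sites, that of Agt 2, that of Aldoc 1 and that of Slc1a3 0, and 46.7% of 32851 promoter windows of this length held at least 1. The STAT palindrome was found once each for Agt and Slc1a3, and in 8.30% of all windows. These 2 motifs did not overlap each other in the 4 windows. A TATA box (TATAAA, either strand) stood at -30 from the start in Agt and at -161 in Slc1a3, and in 13.6% of all windows. The windows held 3, 1, 3 and 8 CpG for S100b, Agt, Slc1a3 and Aldoc, against a median of 7. A match is a description of the letters and shows neither binding nor a cause.

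S100b (ENSMUSG00000033208) encodes a calcium-binding protein that appears as astrocytes mature and lose stem cell properties. It measured 135, 137 and 136 CPM in WT and 42.8, 48.7 and 50.5 CPM in KO. The WT libraries lay within 1.01-fold of each other, and no KO library came near them. S100b fell 2.87-fold (log2 fold change -1.52, SE 0.11, adjusted p = 0.000412, edgeR). Without each library in turn the adjusted p was 0.000276 to 0.00805.

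Sparcl1 (ENSMUSG00000029309) encodes hevin, a matricellular protein that astrocytes release and that promotes synapse formation. Its levels were 350.0, 282 and 322 CPM in WT and 150, 161 and 133 CPM in KO. The groups did not overlap, and the lowest WT library was WT 2. Sparcl1 fell 2.15-fold (log2 fold change -1.10, SE 0.12, adjusted p = 0.00339, edgeR), and the adjusted p without each library in turn was 0.00374 to 0.0316. Sparc, the paralog that counteracts hevin in synapse formation, rose instead, from 207, 195 and 188 CPM to 342, 356 and 306 CPM (log2 fold change 0.77, SE 0.10, adjusted p = 0.0073). In TPM, Sparc stood at 337 ± 25.6 in WT and 579 ± 41.2 in KO (SD, n = 3 each).

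Agt (ENSMUSG00000031980) encodes angiotensinogen, which in brain is made largely by astrocytes. It measured 50.1, 33.2 and 48.6 CPM in WT and 15.97, 18.7 and 10.7 CPM in KO. The groups did not overlap although Agt varied by 1.51-fold within WT and 1.76-fold within KO, and WT 2 and KO 3, both with over 3% mitochondrial counts, were the lowest of their groups. Agt fell 2.91-fold (log2 fold change -1.54, SE 0.24, adjusted p = 0.0128, edgeR). The call ended without WT 3 (adjusted p = 0.0784) or KO 1 (adjusted p = 0.0563).

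Slc1a3 (ENSMUSG00000005360) encodes GLAST, a glutamate transporter of radial glia and astrocytes. It measured 2232, 2378 and 2389 CPM in WT and 1682, 1585 and 1782 CPM in KO. Both groups were tight and apart from each other. Slc1a3 fell 1.39-fold (log2 fold change -0.47, SE 0.10, adjusted p = 0.0402, edgeR). The adjusted p was 0.0572 without WT 1, 0.0877 without WT 2, 0.206 without WT 3, 0.19 without KO 1 and 0.182 without KO 2, so the call held only when KO 3 was the library left out (0.0468).

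Aldoc (ENSMUSG00000017390) encodes aldolase C, the glycolytic aldolase of astrocytes and of some Purkinje cells. Its levels were 1726, 1337 and 1465 CPM in WT and 1051, 1062 and 893 CPM in KO. WT 1 was highest, KO 3 lowest, and the groups did not overlap. Aldoc fell 1.51-fold (log2 fold change -0.59, SE 0.13, adjusted p = 0.0494, edgeR). No call was left without WT 1, WT 2, WT 3, KO 1, KO 2 or KO 3 in turn (adjusted p = 0.0536 to 0.179), nor with library totals in place of scaled libraries (0.0719).

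The other 5 genes did not pass the test. Slc1a2 (ENSMUSG00000005089) encodes GLT-1, the main glutamate transporter of mature astrocytes. It measured 221, 251 and 274 CPM in WT and 200, 187 and 240 CPM in KO, where KO 3 lay above WT 1. Its log2 fold change was -0.25 (95% interval -0.56 to 0.05, adjusted p = 0.502, edgeR). Slc1a3 exceeded Slc1a2 by 24.2 to 28.1 times in TPM in the WT libraries and by 20.7 to 23.6 times in the KO libraries. The interval of Slc1a2 and that of Slc1a3, -0.69 to -0.25, overlap, and the difference between the 2 transporters was not tested.

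Aqp4 (ENSMUSG00000024411) encodes the water channel of astrocyte endfeet. It measured 48.5, 56.8 and 70.7 CPM in WT and 44.4, 37.0 and 58.1 CPM in KO. The highest library of each group, WT 3 and KO 3, had over 3% mitochondrial counts, and the groups overlapped (log2 fold change -0.34, 95% interval -0.79 to 0.12, adjusted p = 0.583, edgeR). It was -0.19 without WT 3 and -0.54 without KO 3. Gja1 (ENSMUSG00000050953) encodes connexin 43, the main gap junction protein of astrocytes and radial glia. It measured 225, 230 and 273 CPM in WT and 242, 240 and 262 CPM in KO. The KO libraries lay inside the WT range, with a log2 fold change of 0.03 and a 95% interval of -0.22 to 0.29 (adjusted p = 0.956, edgeR). A change of Gja1 as large as that of S100b, Sparcl1 or Agt lies outside this interval.

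Apoe (ENSMUSG00000002985) and Clu (ENSMUSG00000022037) encode the main apolipoproteins that astrocytes release. Apoe measured 821, 403 and 647 CPM in WT and 591, 583 and 374 CPM in KO. It spread 2.03-fold within WT, the widest of the 10 genes, and the lowest library of each group, WT 2 or KO 3, had over 3% mitochondrial counts. Its log2 fold change was -0.27 with a 95% interval of -0.89 to 0.34 (adjusted p = 0.824, edgeR). It was -0.03 without WT 1 and -0.52 without WT 2. Clu measured 93.7, 72.5 and 70.4 CPM in WT and 77.1, 72.6 and 59.7 CPM in KO. WT 1 stood apart from an overlapping rest (log2 fold change -0.18, 95% interval -0.53 to 0.18, adjusted p = 0.785, edgeR). Without WT 1 the log2 fold change of Clu was -0.03.

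Several of the 10 genes differed between libraries with under and over 3% mitochondrial counts, in both directions. These class differences are given without a test. In a fit with the 2 classes of libraries as a covariate, the class with over 3% differed from the class under 3% by log2 values of -0.65 for Apoe, -0.47 for Agt, -0.36 for Clu, 0.45 for Aqp4 and 0.28 for Slc1a2. With the covariate, all 5 calls were also made, and Clu was called lower too (log2 fold change -0.29, adjusted p = 0.0286). This fit called more genes in all: 793 of 15298 lower and 902 higher, beside 254 and 271 without the covariate. Apoe moved to -0.49 (adjusted p = 0.127) and was not called. Within the class under 3% (WT 1 against KO 1 and KO 2) and the class over 3% (WT 2 and WT 3 against KO 3), the log2 differences were -1.56 and -1.43 for S100b, -1.17 and -1.18 for Sparcl1, and -1.53 and -1.94 for Agt. They were -0.45 and -0.42 for Slc1a3, -0.71 and -0.65 for Aldoc, and -0.48 and -0.49 for Apoe. A class holds 1 library of 1 group, so these within-class values have no test.

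**Figure D2:**
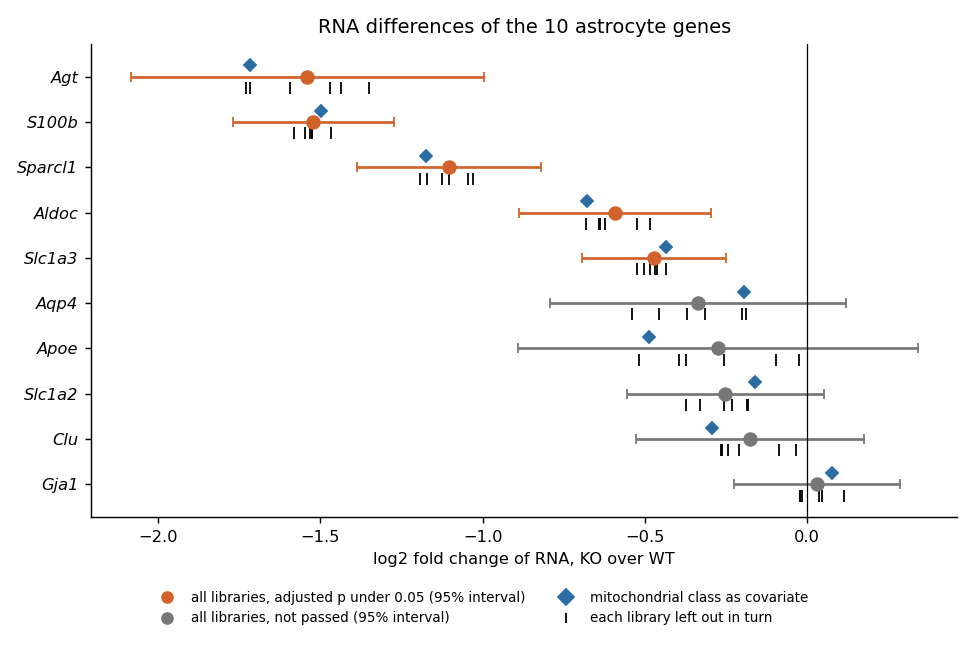
Log2 fold change of RNA (horizontal axis, KO over WT) of the 10 genes, with 95% intervals from all 6 libraries (circles, orange where the adjusted p was under 0.05), values with the mitochondrial class as covariate (blue diamonds) and values without each library in turn (black ticks). The values of Agt, S100b and Sparcl1 lie below -1 in every setting drawn, and those of Gja1 near 0.

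Further genes of astrocyte function were read from 6 lists that leave out the 10 genes: transcription factors, uptake and ion transport, junctions and endfeet, secreted proteins, metabolism, and receptors. Of 127 tested genes of these lists, 15 were called lower and 7 higher, and 78 of 127 log2 fold changes (61.4%) lay below 0, with a median of -0.11. Over all 15298 tested genes, the shares were 1.66% lower, 1.77% higher and 48.9% below 0, with a median of 0.01. The lists too were chosen with earlier results of these data known, so these counts are a description.

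In the uptake and ion transport list, to which Slc1a2 and Slc1a3 belong by function, 4 of 18 tested genes were lower and 0 higher. Slc6a11, a GABA transporter of astrocytes, fell from 827, 686 and 970.4 CPM to 519, 492 and 499 CPM. Atp1b2, a sodium pump subunit, fell 1.51-fold (adjusted p = 0.0115), and Slc4a4, a bicarbonate cotransporter, fell 1.78-fold (adjusted p = 0.0427). In the metabolism list, to which Aldoc belongs by function, 5 of 26 were lower and 0 higher. They included Aldh1a1, a retinaldehyde dehydrogenase (2.84-fold, adjusted p = 0.000651), Pygm, a glycogen phosphorylase (2.01-fold), Mt2, a metallothionein (1.95-fold), and Ndrg2 (1.70-fold).

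In the secreted protein list, to which Sparcl1 belongs by function, 3 of 22 tested genes were lower and 3 higher. Lcat, the cholesterol-esterifying enzyme that acts on Apoe-containing particles, fell from 40.0, 34.1 and 33.6 to 9.94, 12.1 and 9.38 CPM. Ptn, a growth factor of glia and progenitors, fell 1.70-fold. Thbs2, a synapse-promoting thrombospondin, rose 8.12-fold (adjusted p = 0.000293), in the direction of Sparc and against Sparcl1. In the junction and endfoot list, to which Gja1 and Aqp4 belong by function, 2 of 14 were higher, Pdpn (1.72-fold) and the connexin gene Gjc1 (2.62-fold), and 0 lower.

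Among 21 transcription factors, Lhx2 was higher (5.08-fold, adjusted p = 0.000341) and Hopx lower (2.06-fold). Sox9, Nfia, Nfib, Nfix and the other listed factors did not pass by edgeR. DESeq2 called 3 of the 21: Lhx2, Hopx and Id4, which was named after its value was seen. Among 26 receptors and surface genes, Pla2g7 (1.61-fold) and Ntsr2 (1.75-fold) were lower and Gpr37l1 (1.83-fold) higher. Of 21 tested genes of reactive astrocytes 1 was called, Ggta1 (1.90-fold higher). Of 24 tested genes of gliogenic cytokine and BMP signalling 0 were called by edgeR and 2 by DESeq2, with 6 at an unadjusted p under 0.05 (edgeR). Over all 15298 tested genes, DESeq2 called 958, and 2096 had an unadjusted p under 0.05 by edgeR.

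**Figure D3:**
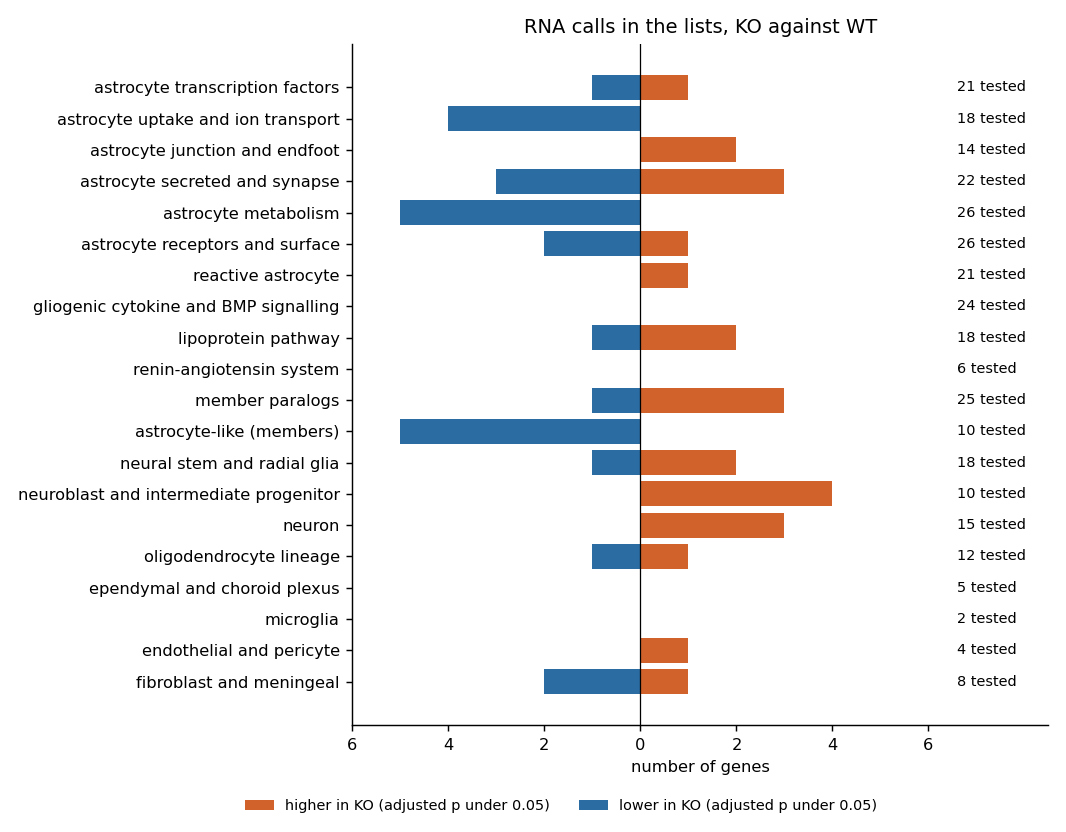
Number of genes (horizontal axis) called higher in KO (orange, to the right) or lower in KO (blue, to the left) at an adjusted p under 0.05 by edgeR, for each list, with the number tested at the right. The 10 genes, uptake and ion transport, and metabolism hold lower calls only. The junction and endfoot, reactive astrocyte, neuroblast, neuron, and endothelial and pericyte lists hold higher calls only.

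Partners of single members were listed as well. Of 6 tested genes of the renin-angiotensin system other than Agt, 0 were called by edgeR or DESeq2. An unadjusted p under 0.05 (edgeR) was seen for 1 of these 6, beside 2096 of all 15298 tested genes. The angiotensin receptor genes Agtr1b and Agtr2 were at 0 in all 6 RNA libraries. In the lipoprotein pathway, around Apoe and Clu, 1 of 18 tested genes was lower (Lcat) and 2 higher: the cholesterol exporter gene Abcg1, from 1.27, 0.699 and 1.04 to 3.51, 3.95 and 3.42 CPM, and Apod, under 1 CPM in every library. Among 25 tested paralogs of the 10 genes, Sparc, Gjc1 and S100a16 were higher. S100a16 rose 1.83-fold (adjusted p = 0.0402), against the direction of S100b. The only lower paralog was Gjc3, connexin 29, a connexin of oligodendrocytes, which fell 2.97-fold (adjusted p = 0.0073). Aldoa, the widely expressed aldolase, stood at 1284 ± 263 TPM in WT and 1104 ± 197 TPM in KO (SD, n = 3 each).

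Markers of other cell types were read beside these results, summed per list as CPM of the unscaled library totals. The 14 microglial genes summed to 1.88 to 2.46 CPM over all 6 libraries, with Cx3cr1, C1qc, Trem2 and Itgam at 0, and the endothelial genes Cdh5 and Cldn5 were at 0. The 17 neuron genes summed to 1148 to 1306 CPM in WT and 1400 to 1612 CPM in KO, with 3 of 15 tested genes called higher and 0 lower. The 14 neuroblast and intermediate progenitor genes summed to 480 to 509 CPM in WT and 647 to 700 CPM in KO, with 4 of 10 higher and 0 lower. The 19 stem and radial glia genes summed to 8776 to 9089 CPM in WT and 10945 to 11220 CPM in KO, with 2 of 18 higher and 1 lower. Yet 10 of these 18 log2 fold changes lay below 0, with a median of -0.008, so the higher sum did not hold across the list. The stem and radial glia list shares Sox2, Hes1, Hes5, Hopx, Fabp7, Ptprz1 and Notch1 with the astrocyte lists. Its 1 lower gene is Hopx, the same gene as the lower transcription factor above. The neuron, neuroblast and stem cell sums moved with the genotype, and their part in the lower RNA of the 5 called genes was not tested. In the oligodendrocyte list, 1 of 12 tested genes was higher (Myrf) and 1 lower (Bcas1, 4.37-fold), and the sums overlapped, at 2360 to 3915 CPM in WT and 2370 to 3671 CPM in KO. Of the 12 fibroblast and meningeal genes (37.8 to 43.8 CPM in WT, 27.6 to 29.0 CPM in KO), 1 of 8 tested was higher and 2 lower. Endothelial and pericyte genes summed to 95.1 to 172 CPM in WT and 144 to 184 CPM in KO, with 1 of 4 tested genes higher (Flt1). Cspg4 of this list and Pdgfra of the fibroblast and meningeal list are also in the oligodendrocyte list, so these sums are not of separate genes. Ependymal and choroid plexus genes overlapped at 37.3 to 59.1 and 44.1 to 63.9 CPM, with 0 of 5 called by edgeR. DESeq2 called 1 of the 5, beside 958 of all 15298 tested genes. By edgeR, 1 of the 5 had an unadjusted p under 0.05, beside 2096 of all tested genes. Erythroid genes stayed at or under 0.507 CPM, with none tested.

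For each called gene, the protein-coding genes whose log2 CPM followed it most closely over the 6 libraries were sought among 11316 others. For S100b these were Gfpt2 and Ubash3b (Pearson r = 0.998 and 0.998), for Sparcl1 Txnip and Mras (0.999 and 0.998), and for Agt Nat8f1 and Ivd (0.998 and 0.998). For Slc1a3 they were Spire1 and Cntn1 (1.00 and 0.998), and for Aldoc Slc29a1 and Scarf2 (0.998 and 0.993). No member was among another member's closest pair. All 6 points share the division into genotypes, and 139 to 240 genes reached an r of at least 0.95 with each called gene.

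CUT&Tag asked whether the labelled chromatin signal differed at these genes. The 28 assigned regions belonged to 9 of the 10 genes: 7 each to Slc1a2, Slc1a3 and Aqp4, 2 to Clu, and 1 each to S100b, Agt, Aldoc, Gja1 and Apoe. They were 200 to 803 bp wide and held 7 to 101 reads per library. By the deposited annotation, 8 regions were promoter, 10 intronic, 8 distal intergenic and 2 in a 3′ UTR. The authors had called a peak in all 4 libraries for 3 regions and in a single library for 14.

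None of the 28 regions was called (edgeR, smallest adjusted p = 0.932), where 0.00722% of 69209 tested regions were. By edgeR, 1 of the 28 had an unadjusted p under 0.05, beside 3704 of the 69209 tested regions. DESeq2 gave an adjusted p for only 1 of the 28, which was not called, and left the others without one. The log2 fold changes ran from -0.84 to 0.89 with a median of 0.01, 16 above and 12 below 0. In 10 regions the WT and KO libraries did not overlap, as in 34.7% of all tested regions. In the authors' deposited table the q-value was 1 for all regions, and 1 member region had a p under 0.05, an intron 1 region of Slc1a2 (p = 0.0388).

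The starts of S100b, Agt and Aldoc each lay in an assigned region. The S100b start lay in chr10:76089319-76089782 (GRCm39), where WT held 65 and 46 reads and KO 86 and 65. After scaling, the groups overlapped (log2 fold change 0.12, 95% interval -0.40 to 0.64), while S100b RNA was 2.87-fold lower. The Agt start lay in chr8:125296393-125296728, with 65 and 37 WT and 79 and 51 KO reads (log2 fold change 0.03, 95% interval -0.53 to 0.58). The Aldoc start lay in chr11:78213769-78214030, with 41 and 52 WT and 57 and 48 KO reads (log2 fold change -0.15, 95% interval -0.76 to 0.46). Differences inside these intervals were not excluded by these 2 libraries a group.

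The starts of Apoe and Clu held 41 and 46 against 53 and 38 reads and 49 and 37 against 70 and 39 reads (WT against KO). The 95% intervals of both log2 fold changes include 0 (-0.91 to 0.39 and -0.61 to 0.62). The region at -251 bp from the Slc1a2 start held 51 and 53 WT reads and 80 and 51 KO reads, with a log2 fold change of 0.00. Gja1 had 1 region, at -7870 bp from its start, with 35 and 31 against 47 and 36 reads. RNA of these 4 genes did not pass the test either.

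Slc1a3 held the strongest member region and the one with the lowest p. The strongest, chr15:8658729-8659156, was called in all 4 libraries and had 101 and 94 WT reads and 98 and 91 KO reads. Its WT level lay at the 96.0th percentile of all regions, and its log2 fold change was -0.36 (95% interval -0.79 to 0.06). The lowest p belonged to chr15:8770492-8770859, at -30244 bp from a Slc1a3 start, with 52 and 24 WT reads and 23 and 29 KO reads. Its log2 fold change was -0.84 (unadjusted p = 0.0401), but WT 2 lay within the KO reads, and the adjacent region at -30697 bp went the other way (0.35). Without each library in turn, the log2 fold change of the region at -30244 bp ran from -1.25 (without WT 2) to -0.23 (without WT 1). Distances are those deposited for the assigned transcript, which can differ between regions of a gene.

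**Figure D4:**
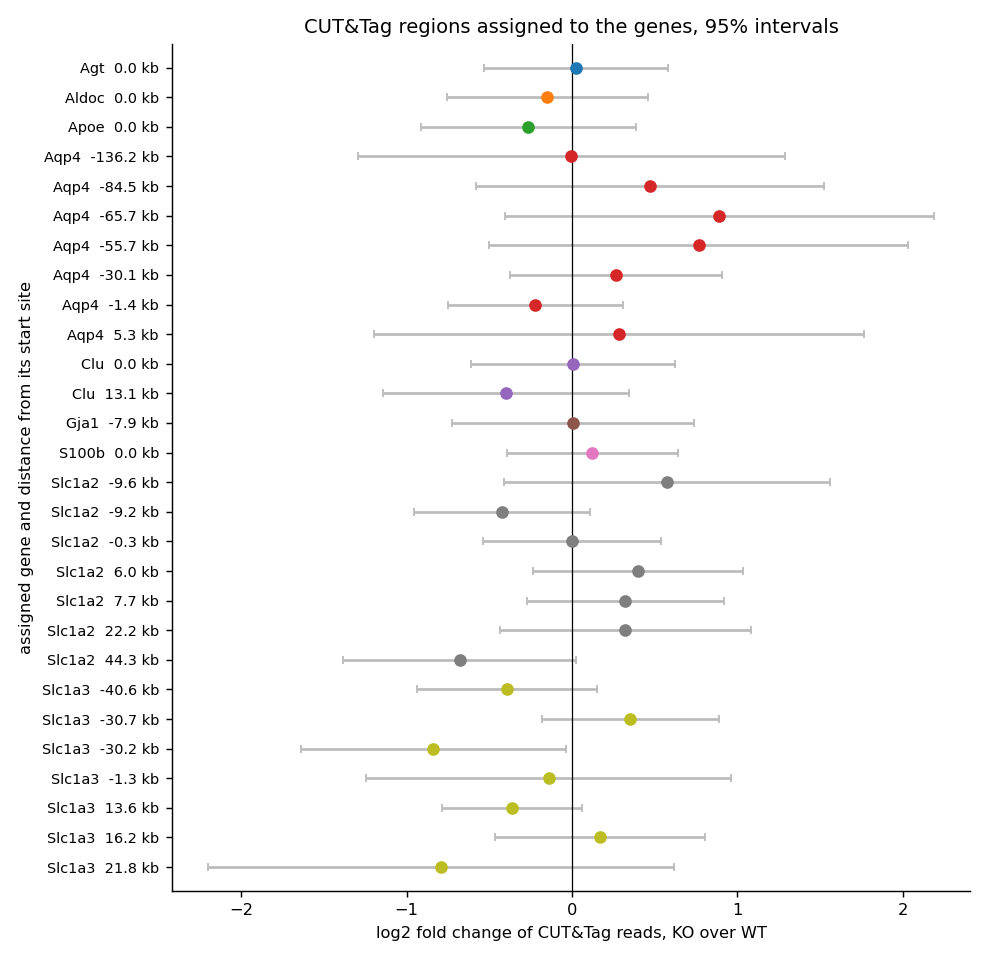
Log2 fold change of CUT&Tag reads (horizontal axis, KO over WT) with 95% intervals for the 28 regions assigned to the genes, from 2 WT and 2 KO libraries, labelled and coloured by gene with the deposited distance from its start. All intervals but that of the Slc1a3 region at -30244 bp from the start include 0.

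Sparcl1 was the only one of the 10 genes with no assigned region. Among the 617 tested genes with a higher WT TPM, 78.3% had at least 1. However, 3 regions lay inside Sparcl1 by their annotation and were assigned to neighbouring predicted genes, which was noticed after the values were seen. They were chr5:104250508-104251254 in intron 1, chr5:104238166-104238775 in exon 5 and chr5:104231226-104231574 in intron 10. The intron 1 region held 86 and 118 WT reads and 144 KO reads in each library, at the 96.6th percentile of WT levels. The 3 log2 fold changes were 0.18 (95% interval -0.21 to 0.57), 0.10 (-0.45 to 0.66) and 0.19 (-0.47 to 0.85), all above 0 and none called. Another 2 regions lay in intron 3 of Slc1a3 and were assigned to a predicted gene, with log2 fold changes of -0.09 and 0.17. Conversely, the regions of Aqp4 between -55737 and -136201 bp from its start lay in introns of another gene. The Clu region at 13130 bp likewise lay in an intron of a gene other than Clu.

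When reads were summed over all regions with the same assigned gene, none of the 9 genes was called (edgeR), where 0.0881% of 13627 tested genes were. None had an unadjusted p under 0.05, where 1044 of the 13627 genes did, and DESeq2 called none of the 9. Aqp4 came closest, with 178 and 150 WT reads and 268 and 207 KO reads (log2 fold change 0.26, 95% interval -0.05 to 0.57). With only the regions within 3 kb of a start, the Aqp4 value was -0.12. Slc1a3, with 353 and 291 against 385 and 309 reads, had a log2 fold change of -0.16 (95% interval -0.40 to 0.07). Slc1a2 stood at 0.07 (95% interval -0.17 to 0.31).

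**Figure D5:**
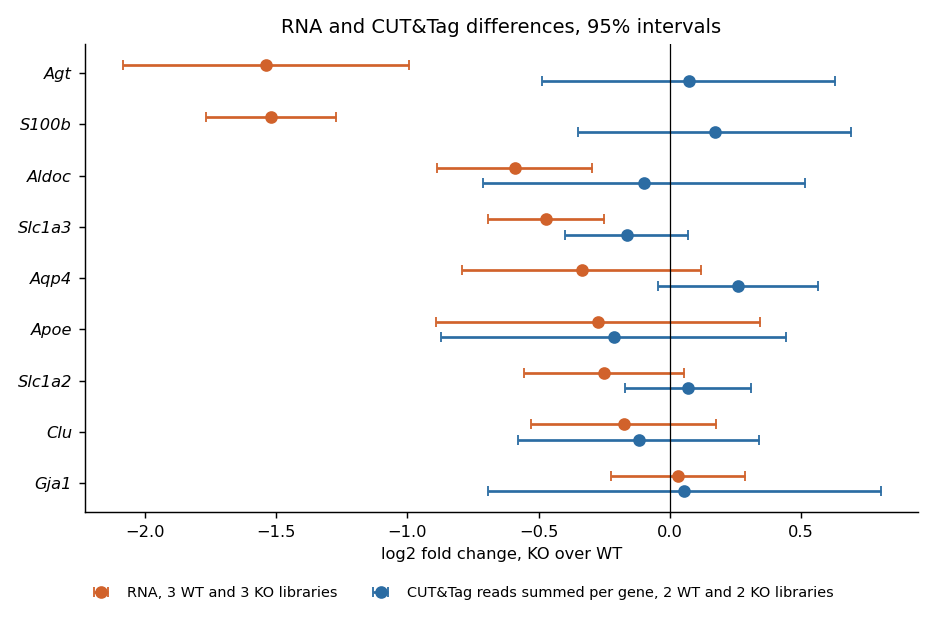
Log2 fold change (horizontal axis, KO over WT) with 95% intervals for RNA (orange, 3 WT and 3 KO libraries) and for CUT&Tag reads summed per gene (blue, 2 WT and 2 KO libraries) of the 9 genes with an assigned region. For Agt, S100b, Slc1a3 and Aldoc the RNA intervals lie below 0 and the CUT&Tag intervals span 0.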

How the data were processed

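RNA-seq (3 WT, 3 KO) and CUT&Tag (2 WT, 2 KO) of NSPCs were analysed; titles and genotype labels gave the groups and replicate numbers. Per the submitters' processing notes, HISAT2 and StringTie were used with GRCm39. Not given in the sources used here are counting tool, strand setting, annotation release and peak caller. Values of genes with antisense or overlapping partners are therefore uncertain. The deposited RNA table holds expected counts per gene, in part not whole, rounded here. The authors' deposited table of merged regions holds counts per library, peak marks, assigned gene, RPM, a log2 fold change, a p-value and a q-value; of these the authors' RPM were not used.

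Both tables were tested with edgeR 4.0.16 (glmQLFit, robust; glmQLFTest; TMM; filterByExpr, minimum count 10) in R 4.3.3 for KO against WT; p-values were adjusted by Benjamini-Hochberg over all features tested (threshold 0.05), and the script was tested on simulated data. CPM are TMM-scaled; the SE is the size of the log2 fold change over the square root of F. CUT&Tag reads were also summed per assigned gene name, leaving out 43.1% of regions with none, and scaled over these sums; without a spike-in, a signal change common to all regions cannot be measured. Depths are given with the results, and limit regions of few reads most.

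The members and lists were chosen with earlier results of these data known. Named were all members, per pathway list up to 4 called genes of smallest p, and for each called member the 2 genes of highest r. Among markers of other cell types, called genes were named only for the oligodendrocyte and the endothelial and pericyte lists, besides Hopx, shared by the stem list. Aldoa, the genes at 0, the factors that did not pass, and the regions inside Sparcl1 and Slc1a3 were named after their values were seen. A called gene of the lists is not reported here. Alternatives were RLE factors, library totals, DESeq2 1.42.0, no filter, 1 CPM, no robust dispersion, a replicate block, the mitochondrial class, no mitochondrial genes, regions called in at least 2 libraries, windows of 1 and 3 kb, and each library left out.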

Additional observations from a re-analysis of the deposited data

How the results depend on the processing

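The 5 RNA calls among the 10 genes were 5 under 6 settings, 4 with library totals, 6 with the mitochondrial class and 2 to 4 without each library; S100b and Sparcl1 were called under all 15 alternatives. Over all genes, 525 calls became 958 with DESeq2, 1695 with the mitochondrial class, and 145 to 506 without each library. Same-numbered RNA libraries deviated with correlations of 0.46, -0.37 and 0.27. With 3 libraries a group these cannot show whether libraries were paired, and no label pairs them, so pairing is unknown. The main fit used no replicate block. With the replicate block, 229 genes, 2 of the 10 genes and 9 regions were called. Regions called, 5, were 8 with DESeq2 and 1 to 15 without each library. Genes called by summed CUT&Tag reads, 12, were 1 with DESeq2, 3 with regions called in at least 2 libraries, 2 within 1 kb, 3 within 3 kb, and 3 to 17 without each library. No setting called a member sum, and none called a member region, but DESeq2 gave an adjusted p for only 1 of the 28 regions. Some log2 values that were not called changed sign. Within 3 kb, Aqp4 sums gave -0.12; Clu sums gave 0.14 within 1 kb and 0.11 within 3 kb. With the replicate block, the start regions of Clu and Slc1a2 gave -0.0075 and -0.0065. Without each library, ranges were -0.022 to 0.11 for Gja1 RNA, and for summed reads -0.24 to 0.49 (Agt), -0.30 to 0.12 (Aldoc), -0.42 to 0.27 (Clu), -0.0077 to 0.11 (Gja1), -0.024 to 0.40 (S100b) and -0.036 to 0.18 (Slc1a2). For regions they were -0.28 to 0.43 (Agt), -0.35 to 0.085 (Aldoc), -0.31 to 0.25 (Clu start), -0.85 to 0.29 (Clu at 13130 bp), -0.048 to 0.055 (Gja1), -0.059 to 0.34 (S100b), -0.20 to 0.16 (Slc1a2) and -1.01 to 1.10 (Slc1a3 at -1264 bp). The cause was not tested. Leaving out a CUT&Tag library leaves 1 in a group, assumed to vary like the other group.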
